A study of Mus musculus with 4 samples.

Results

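The genes of the NF-kB transcription factor subunits and of the proteins that restrain them were examined in B220+ cells sorted from the bone marrow of mice. They were 10 genes: the 5 subunit genes Nfkb1, Nfkb2, Rel, Rela and Relb, and the 5 feedback genes Nfkbia, Nfkbie, Nfkbiz, Tnfaip3 and Bcl3. They were chosen by name, as every probe of the signal table that carried one of these symbols, which gave 11 of 25697 probes and 10 of 17916 genes. All 11 probes were detected on all 4 arrays, so no gene was lost to a filter on dim probes. The study measured RNA on Illumina MouseRef-8 bead arrays in C57BL6/J mice, in wild type (WT) marrow and in marrow lacking both Btg1 and Btg2 (Btg1-/-;Btg2-/-, called dKO). Btg1 and Btg2 encode related antiproliferative proteins. From each genotype, cells bearing the B-cell surface marker B220 were sorted into a CD43+ fraction, which the labels call Hardy ABC and which holds the earliest B-lineage stages up to pro-B, and a CD43- fraction, called Hardy DEF, which runs from pre-B to mature B cells. There was 1 array for each of the 4 groups. The sources used here do not give the animals' age or sex, how the alleles were made or whether animals were pooled.

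NF-kB proteins are dimers that wait in the cytoplasm, bound by inhibitors of the IkB family. Signals from the B-cell receptor, Toll-like receptors or TNF-family receptors make the IKK kinases mark the IkB proteins for destruction, and the freed dimers enter the nucleus. Dimers of p50 (from Nfkb1), RelA and c-Rel serve this canonical route, whereas a slower alternative route, driven in B cells by receptors such as CD40 and the BAFF receptor, cuts the Nfkb2 product p100 to p52, which pairs with RelB. Several of the genes studied here are known NF-kB targets themselves, which closes a feedback loop: Nfkbia encodes IkB-alpha, Nfkbie encodes IkB-epsilon, and Tnfaip3 encodes A20, an enzyme that shuts down upstream signalling. Bcl3 and Nfkbiz encode atypical IkB proteins that act in the nucleus on p50 or p52 dimers. RelA, c-Rel and the alternative pair support the survival and maturation of B cells.

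Promoter sequences are shown because the feedback loop rests on DNA sites for the factor in front of its own genes. RefSeq promoters (build GRCm38.p6, from 250 bases before to 50 bases after a transcript start) were found for 7 of the 10 genes, with 10 promoters in all. They were searched on both strands for the 10-base kB consensus, and the matching bases are in capitals with up to 10 bases on each side. The windows read 5′ to 3′ along the gene. In Rel and in the first Nfkb2 window the capitals cover 2 overlapping matches.
Nfkb2, start 1, chr19:46304688-46304718, plus strand: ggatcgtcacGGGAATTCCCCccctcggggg
Nfkb2, start 1, chr19:46304716-46304745, plus strand: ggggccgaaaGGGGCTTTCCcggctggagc
Nfkb2, start 2, chr19:46305449-46305478, plus strand: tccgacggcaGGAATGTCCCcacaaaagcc
Nfkb2, starts 2 and 3, chr19:46305695-46305724, plus strand: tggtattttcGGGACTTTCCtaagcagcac
Rel, chr11:23771041-23771071, minus strand: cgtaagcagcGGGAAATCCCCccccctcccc
Nfkbia, chr12:55492657-55492686, minus strand: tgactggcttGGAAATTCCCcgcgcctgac
Nfkbie, chr17:45555584-45555613, plus strand: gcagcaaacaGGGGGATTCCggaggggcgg
Tnfaip3, start 1, chr10:19015516-19015545, minus strand: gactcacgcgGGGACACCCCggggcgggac
Tnfaip3, start 1, chr10:19015403-19015432, minus strand: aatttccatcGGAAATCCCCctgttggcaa
Bcl3, chr7:19822734-19822763, minus strand: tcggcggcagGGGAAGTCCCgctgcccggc

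A match was thus present for 6 of the 7 genes, against 4.5% of all 32851 promoters of this length and 5.1% of the 27025 genes they belong to. Rela was the gene with none, and the second listed start of Tnfaip3 had none either. The Nfkbia match began 29 bases before the start and the nearer Tnfaip3 match 12 bases before it, whereas the Bcl3 match lay just after the start. No promoter is shown for Nfkb1, Relb and Nfkbiz. A match describes the letters only and shows no binding in these cells.

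The arrays detected 39.5% to 43.3% of all probes. A typical probe was read on 38 to 39 beads, and its standard error over beads (bead SE) was 4.00% to 4.06% of the signal (medians by array). The mean signal was 550.7 and 555.2 on the WT arrays and 662.1 and 648.1 on the dKO arrays (CD43+ first), so raw signals were brighter in dKO before normalization. Btg1 was lower in dKO on both of its probes (log2 differences of -1.71 and -2.05 in CD43+ and of -1.44 and -1.86 in CD43- cells). Both probes were still detected in dKO, with signals of 3459 and 2388 in CD43+ and of 8115 and 5713 in CD43- cells. Where these probes lie relative to the deleted allele is not known, so the loss of Btg1 was not shown. Btg2 was detected on none of the 4 arrays, so its loss could not be checked either. The B-lineage gene Cd79b and Ptprc, which encodes B220, were detected on all arrays, and Spn, which encodes CD43, in the CD43+ samples only. The Spn signals were 165 and 180 in CD43+ and 149 and 157 in CD43- cells (WT first). The CD43+ ones were at or close to the lowest detected signals of their arrays (165 and 171). The fractions also differed in markers of other cells. In CD43+ cells the summed normalized level of 11 B-lineage markers was 44198 and 38692, and in CD43- cells 69747 and 66367 (WT first). Sums of different marker lists come from different probes and are not comparable with each other. The summed normalized level of 9 plasmacytoid dendritic cell markers was 58021 and 65575 in CD43+ and 2163 and 6953 in CD43- cells (WT first), and that of 11 NK-cell markers was 15013 and 19468 against 1207 and 2045. In such bulk samples, fewer cells of a type and less RNA per cell cannot be told apart.

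**Figure D1:**
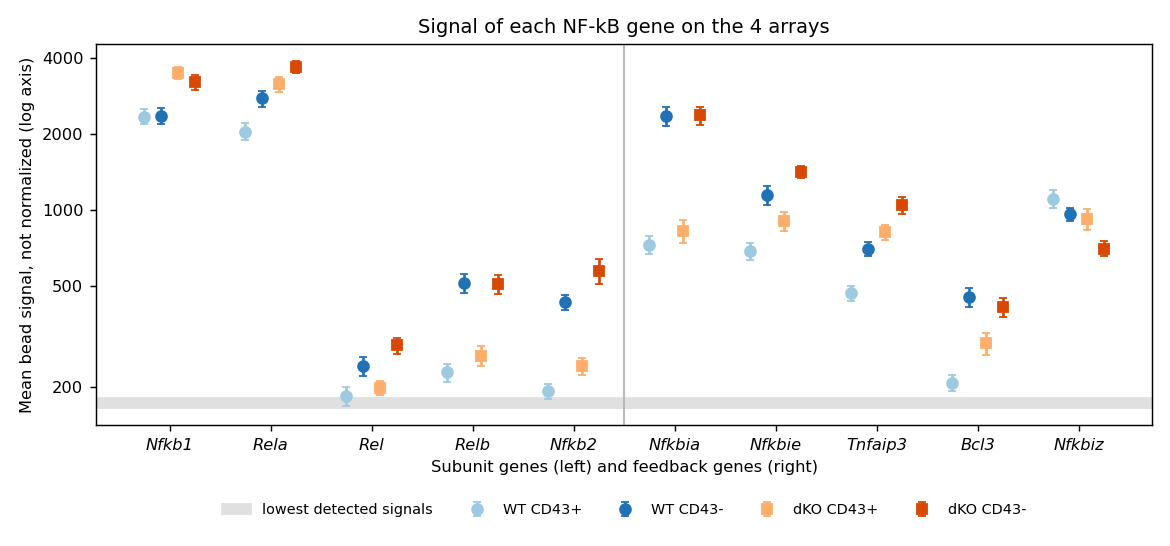
Mean bead signal, not normalized, of the brightest probe of each gene on the 4 arrays (log axis), with bars of 2 bead SE and a grey band over the lowest detected signals of the arrays (165 to 181). Nfkb2, Relb, Rel, Nfkbia, Nfkbie and Bcl3 were brighter on both CD43- arrays than on both CD43+ arrays, and Rel lay nearest the detection limit. Heights of different genes are from different probes and are not comparable.

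The first question was how these genes differ between the CD43+ and the CD43- fractions. Nfkb2, Relb, Rel, Nfkbia, Nfkbie and Bcl3 rose in CD43- cells, by 1.77-fold to 4.69-fold, whereas Nfkb1, Rela, Nfkbiz and Tnfaip3 did not pass the test. The test was an additive limma fit over the 4 arrays, which takes the 2 genotypes as repeats of the fraction difference, with Benjamini-Hochberg adjustment over 8962 genes and an adjusted p threshold of 0.05. It called 6 of the 10 genes higher and 0 lower, beside 10.2% of all genes higher and 12.9% lower. Together they were 23.1% of all genes (39.8% at an unadjusted p of 0.05, which 7 of the 10 genes passed). The fit has 1 residual degree of freedom, and the sources do not say whether both fractions of a genotype were sorted from one animal. Within WT, 5 of the 10 genes were at least 2-fold higher in CD43- cells, against 7.85% of 8539 genes (19.0% in either direction), and within dKO 4 of 10, against 6.06% of 8495 (16.7% in either direction); 0 were 2-fold lower, where 11.2% and 10.6% of all genes were. The median log2 difference of the 10 genes was 0.99 in WT and 0.85 in dKO, beside medians over all genes of 0.063 and 0.049.

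Among the subunits of the alternative route, Nfkb2 had signals of 192 (CD43+) and 431 (CD43-) in WT, and of 241 and 576 in dKO. Both CD43- values stood above both CD43+ values. After normalization Nfkb2 was 5.09-fold higher in CD43- cells in WT (log2 2.35, bead SE 0.151) and 4.31-fold higher in dKO (2.11, bead SE 0.152), and the fit gave 2.23 (SE 0.165, adjusted p = 0.00345, higher in 2 of 2 genotypes). Without background correction the Nfkb2 differences were 1.29 in WT and 1.28 in dKO. Relb, its dimer partner, had signals of 228 and 514 in WT and of 265 and 508 in dKO (CD43+ first). Its 2 CD43- signals were nearly equal and again above both CD43+ signals. The normalized Relb difference was 4.11-fold in WT (2.04, bead SE 0.153) and 2.99-fold in dKO (1.58, bead SE 0.153), with a fitted difference of 1.81 (SE 0.189, adjusted p = 0.0062). Without background correction the Relb differences were 1.29 and 0.96.

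The canonical subunits differed among themselves. Rel, which encodes c-Rel, was dim, with signals of 184 and 241 in WT and of 198 and 292 in dKO. The CD43+ values were close to the lowest detected signal of their arrays (165 and 171), so the size of the Rel difference depends on the background correction. The normalized Rel difference was 2.24-fold in WT (1.16, bead SE 0.227) and 2.54-fold in dKO (1.35, bead SE 0.163), with an adjusted p of 0.0101 in the fit. Without background correction these differences were 0.49 and 0.58, under 2-fold, and with an offset of 50 they were 0.85 and 0.99.

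Rela had signals of 2042 and 2759 in WT and of 3142 and 3674 in dKO. Its normalized values were 11.13 and 11.56 in WT and 11.36 and 11.65 in dKO on the log2 scale, so each CD43- value was above the CD43+ value of its genotype. The differences were 0.43 (bead SE 0.081) and 0.28 (bead SE 0.064), larger than the bead error, and the fit gave 0.36 (adjusted p = 0.172). Nfkb1, the gene of p105 and p50, had signals of 2337 and 2362 in WT and of 3486 and 3205 in dKO. Its fraction differences of -0.03 (bead SE 0.075) and -0.06 (bead SE 0.063) were within the bead error in both genotypes, and its 4 normalized values lay between 11.30 and 11.50 on the log2 scale, the narrowest range of the 10 genes.

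Of the feedback genes, Nfkbia had signals of 729 and 2352 in WT and of 826 and 2369 in dKO. The CD43- arrays of both genotypes gave almost the same signal, 3.23 and 2.87 times that of the CD43+ arrays (WT first). The normalized difference was 3.52-fold in WT (1.81, bead SE 0.097) and 3.39-fold in dKO (1.76, bead SE 0.105), with an adjusted p of 0.00454 in the fit. Nfkbie was read by 2 probes. The brighter one gave 687 and 1142 in WT and 904 and 1415 in dKO, and the dimmer one 203 and 284 in WT and 218 and 285 in dKO. Both probes were higher in CD43- cells in both genotypes, by 0.81 and 0.82 on the brighter probe and by 1.19 and 0.96 on the dimmer one (WT first). The fit on the brighter probe gave 0.82 (SE 0.155, adjusted p = 0.0272), and the authors' RMA table, with 1 value per gene, 1.07 with an adjusted p of 0.0513.

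Bcl3 had signals of 207 and 453 in WT and of 297 and 414 in dKO. The WT CD43+ array was the lowest and the WT CD43- array the highest, with the dKO arrays between them. Bcl3 was 4.40-fold higher in CD43- cells in WT (2.14, bead SE 0.156) and 1.84-fold higher in dKO (0.88, bead SE 0.155), and the fit gave 1.51 (SE 0.333, adjusted p = 0.039). In the authors' RMA table the fitted value was 1.70 with an adjusted p of 0.108, so the call was lost there. Without background correction the differences were 1.25 in WT and 0.53 in dKO.

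Tnfaip3 had signals of 469 and 701 in WT and of 818 and 1044 in dKO. It was higher in the CD43- sample of each genotype, by 0.75 (bead SE 0.088) in WT and 0.48 (bead SE 0.084) in dKO, and narrowly missed the threshold in the fit (0.62, adjusted p = 0.0624). With an offset of 50 its adjusted p was 0.0216, and without background correction 0.00826. Nfkbiz alone among the feedback genes had its lower value in CD43- cells in both genotypes, with signals of 1109 and 960 in WT and of 921 and 704 in dKO. The normalized differences were -0.25 (bead SE 0.085) and -0.36 (bead SE 0.101), and the adjusted p was 0.222.

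**Figure D2:**
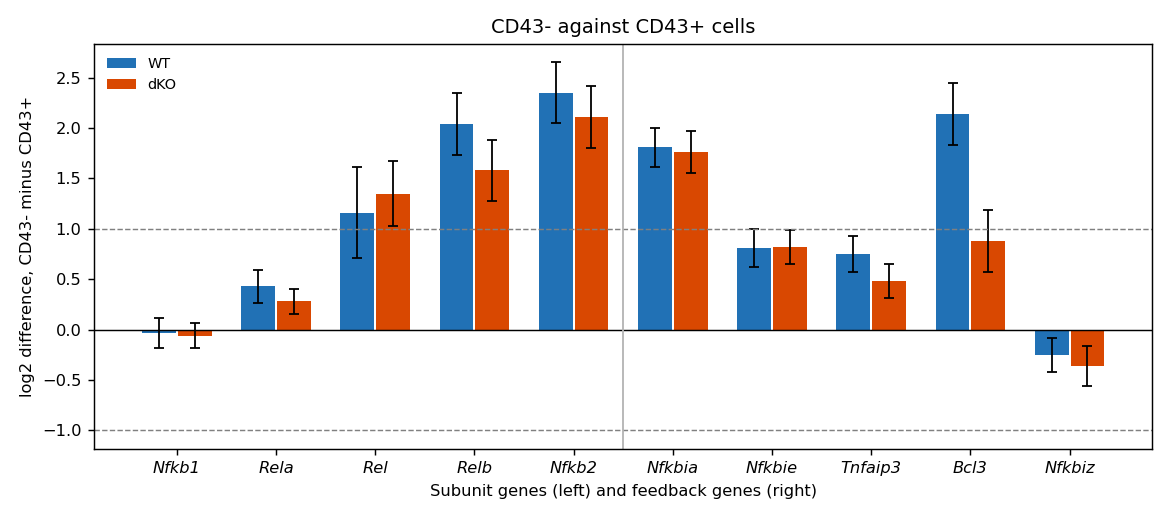
Difference between CD43- and CD43+ cells for each gene (log2, CD43- minus CD43+) in WT and dKO, with bars of 2 bead SE and dashed lines at 2-fold. Nfkb2, Relb, Rel and Nfkbia were past 2-fold in both genotypes, Bcl3 in WT only, and Nfkb1 was at 0 within the bead error.

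Nfkb2, Relb, Rel and Nfkbia were at least 2-fold higher in CD43- cells in both genotypes, whose comparisons share no array; Rel and the dKO value of Relb lost this without background correction, and Rel also with an offset of 50 and, in WT, with median scaling (0.96). Of all genes, 4.32% (349 of 8072) met the same condition. Markers of mature B cells moved with these genes: 8 of 9 tested markers were at least 2-fold higher in CD43- cells in both genotypes, with median log2 differences of 3.06 in WT and 3.60 in dKO, and their summed level was 13719 and 17632 in CD43+ and 19993 and 23596 in CD43- cells. Markers of T cells, NK cells and plasmacytoid dendritic cells moved the other way, with 7 of 7, 10 of 11 and 9 of 9 tested at least 2-fold lower in CD43- cells in both genotypes (with undetected values as bounds, 8 and 9 of the NK-cell markers and 7 and 6 of the T-cell markers, WT first). The defining T-cell genes Cd3e, Cd3d and Cd3g and the NK-cell genes Ncr1 and Klrb1c were not detected in CD43- cells, whereas Cd8b1, Lck and Thy1 of the T-cell list and Klrd1, Prf1, Nkg7 and Ctsw of the NK-cell list were detected there in both genotypes. Neutrophil markers differed between the genotypes in this comparison. In WT 7 of 11 were at least 2-fold lower in CD43- cells and 0 higher (median -1.56). In dKO 1 was lower (0 with undetected values as bounds) and 1 higher (median 0.16). The part of all these cells in the differences of the NF-kB genes was not tested.

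The second question was how dKO cells differ from WT cells of the same fraction. None of the 10 genes differed by 2-fold between dKO and WT in either fraction, beside 3.74% of 8631 genes in CD43+ cells (1.74% higher, the rest lower) and 6.24% of 7944 in CD43- cells (3.65% higher and 2.59% lower). Nfkbiz was lower and Tnfaip3 higher in dKO in both fractions, and Bcl3 was higher in CD43+ and lower in CD43- cells. The additive limma fit with fraction as a block called 0 of the 10 genes at an adjusted p of 0.05 (0.0223% of all genes, all higher) and 2 of 10 at an unadjusted p of 0.05, Nfkbiz and Tnfaip3, where 17.8% of all genes passed. The median log2 difference of the 10 genes was 0.13 in CD43+ and 0.05 in CD43- cells, beside medians over all genes of 0.041 and 0.007.

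Nfkbiz had the largest difference toward lower values of the 10 genes in each fraction. Its raw signal was lower in dKO although the dKO arrays were brighter (921 against 1109 in CD43+ and 704 against 960 in CD43- cells). After normalization the dKO value was 1.69-fold below WT in the CD43+ fraction (-0.76, bead SE 0.107) and 1.83-fold below it in the CD43- fraction (-0.87, bead SE 0.078). The fit gave -0.82 (SE 0.158, adjusted p = 0.172, lower in 2 of 2 fractions). With an offset of 50 the adjusted p was 0.0435 and without background correction 0.0116, over a range of 0.0116 to 0.328 for all settings. Neutrophil markers also differed between the genotypes in CD43+ cells, where 8 of 11 were at least 2-fold lower in dKO (summed level 7148 against 34047 in WT). In CD43- cells 0 of 11 neutrophil markers were (9344 against 11087), and 6 of 9 plasmacytoid dendritic cell markers were at least 2-fold higher in dKO (6953 against 2163). The part of these cells in the genotype differences was not tested.

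Tnfaip3, the A20 gene, stood 1.49-fold above WT in the dKO CD43+ fraction (0.57, bead SE 0.09) and 1.24-fold above it in the CD43- fraction (0.31, bead SE 0.082), with an adjusted p of 0.28. Its normalized values were 8.63 and 9.37 in WT and 9.20 and 9.68 in dKO, so the dKO CD43+ value lay below the WT CD43- value. The normalized dKO minus WT difference of Nfkbia was -0.26 and -0.31 (bead SE 0.11 and 0.092), while its raw signals were slightly higher, and the adjusted p was 0.384. Nfkbie differed by 0.01 in both fractions on its brighter probe (bead SE 0.1 and 0.081) and by -0.10 and -0.33 on the dimmer one (bead SE 0.178 and 0.19).

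Bcl3 was the gene whose genotype differences had opposite signs in the fractions, each beyond 2 bead SE. It was 1.65-fold higher in dKO than in WT CD43+ cells (0.73, bead SE 0.182) and 1.45-fold lower in dKO than in WT CD43- cells (-0.53, bead SE 0.123). The difference between the fractions was -1.26 (bead SE 0.22), and a change of this kind of at least 2-fold was found for 1 of the 10 genes and for 4.09% of 7613 genes. Without background correction the Bcl3 differences were 0.34 and -0.38, less than 2-fold apart. Both comparisons and both fraction comparisons of Bcl3 use the same 4 arrays. The bead SE covers the measurement on the chip alone, and with 1 array a group the change has no test.

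The subunit genes differed little by genotype. Nfkb2 was higher in dKO by 0.46 (bead SE 0.173) in CD43+ and by 0.22 (bead SE 0.126) in CD43- cells, and Rela by 0.24 (bead SE 0.078) and 0.09 (bead SE 0.069). Nfkb1 was higher by 0.18 (bead SE 0.064) and 0.15 (bead SE 0.074), although its raw signals in dKO were 1.49 and 1.36 times those in WT. Relb differed by 0.08 (bead SE 0.182) in CD43+ and by -0.38 (bead SE 0.118) in CD43- cells. Rel differed by -0.01 (bead SE 0.23) and 0.17 (bead SE 0.16), within 2 bead SE in both fractions. The adjusted p of the 5 subunits lay between 0.352 for Nfkb2 and 0.816 for Rel.

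**Figure D3:**
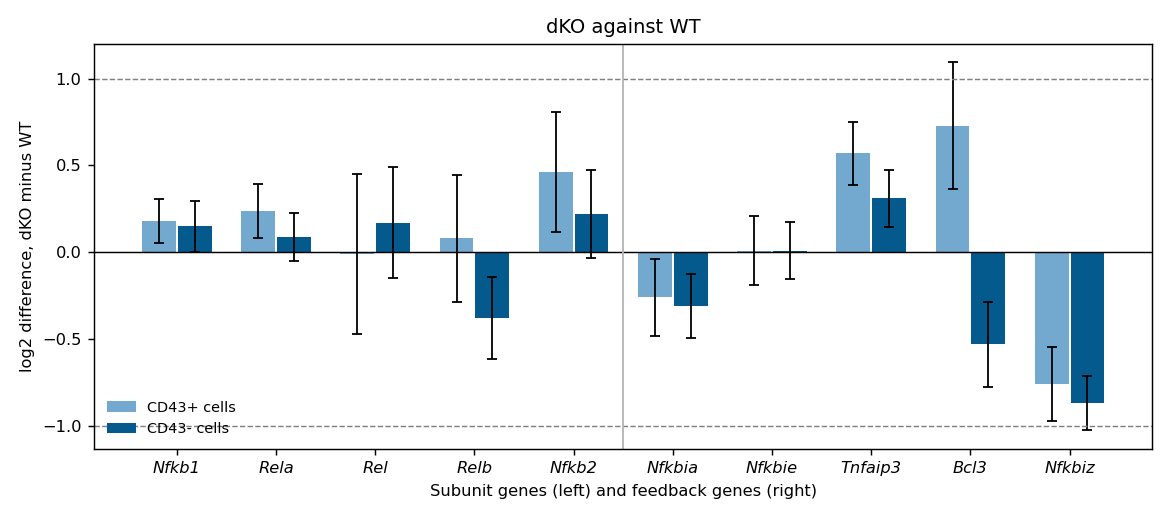
Difference between dKO and WT for each gene (log2, dKO minus WT) in CD43+ and CD43- cells, with bars of 2 bead SE and dashed lines at 2-fold. Nfkbiz was lower and Tnfaip3 higher in both fractions, Bcl3 had opposite signs in them (0.73 and -0.53), and no gene reached 2-fold.

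The other genes of the pathway were read from lists. Of 24 kinases and adaptors upstream of IkB, 8 rose in CD43- cells in the fit and 2 fell, with a median log2 difference of 0.30 against 0.05 for all genes, of which the same fit called 10.2% higher and 12.9% lower. The TRAF adaptors, which link TNF-family receptors to the kinases, were among those that rose: Traf5 (2.30 in WT and 1.99 in dKO, at least 1.81 there because it was not detected in dKO CD43+ cells), Traf3 (1.36 and 1.11), which holds the alternative route in check, Traf2 (0.89 in dKO, and at least 0.86 in WT because it was not detected in WT CD43+ cells) and Traf6 (0.75 and 1.02). Birc3, a ubiquitin ligase that acts with them, rose too (1.96, bead SE 0.285, and 1.16, bead SE 0.183). Its CD43+ signals of 167 in WT and 192 in dKO were close to the lowest detected signals of their arrays (165 and 171). Map3k14 (0.83 in the fit), the gene of the kinase NIK that starts the alternative route, and Bcl10 and Malt1 (0.82 and 0.78), which act in antigen receptor signalling, were the others. Ikbke, which encodes an IKK-related kinase, was among those that fell (-0.90).

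Of 8 tested receptors 2 rose and 3 fell, where 10.2% of all genes rose and 12.9% fell. Cd40, a receptor of the alternative route, was 16.7-fold higher in CD43- cells in WT and 14.9-fold in dKO (its other probes gave 4.00, 1.08 and 3.99 in WT and 4.11 and 3.37 in dKO on the log2 scale), and Tnfrsf13c, which encodes the BAFF receptor, 9.23-fold and 5.96-fold. Cd27, a TNF-family receptor, and Tlr7, a receptor for single-stranded RNA, were 14.8-fold and 6.28-fold lower in WT CD43- cells and 13.3-fold and 5.01-fold lower in dKO. Tlr7 is also on the list of plasmacytoid dendritic cell markers, and Cd40 on that of mature B-cell markers. Of 6 tested ligands, the lymphotoxin genes Lta (at least 5.33-fold in WT, 3.75-fold in dKO) and Ltb (5.55-fold and 3.54-fold) rose, where 10.2% of all genes rose and 12.9% fell. Tnfsf11, the ligand RANKL, was the one that fell; it was detected in dKO CD43+ cells only and its bound allowed no fold.

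Of 11 other inhibitors 3 rose in CD43- cells and 0 fell (10.2% and 12.9% of all genes). Nfkbid, which encodes a nuclear IkB protein like those of Bcl3 and Nfkbiz, was 2.93-fold higher in WT and 2.23-fold higher in dKO, with signals of 1020 and 2784 in WT and of 1015 and 2005 in dKO (CD43+ first). Otud7b, a deubiquitinase, was 2.87-fold and 1.91-fold higher, and Zc3h12a, an RNase that degrades inflammatory transcripts, 2.04-fold and 1.51-fold. Otud7b was dim in CD43+ cells, with signals of 180 in WT and 216 in dKO. In the authors' RMA table the differences were under 2-fold, at 0.96 and 0.57 for Otud7b and 0.72 and 0.94 for Zc3h12a (log2, WT first). Of 17 tested target genes 5 rose and 4 fell (10.2% and 12.9% of all genes), with a median of -0.21 against 0.05 for all genes. Bcl2l1, the gene of the survival protein Bcl-xL, was at 2.16 in the fit and Traf1, a TRAF adaptor, at -1.24. Cd83, an activation marker of B cells, was 9.71-fold and 8.61-fold higher in CD43- cells. The chemokine genes Ccl5 and Ccl4, which NK cells express strongly, were 39.1-fold and 46.3-fold lower in WT CD43- cells, and Ccl3 was lower by at least 6.55-fold in dKO, where it was detected in CD43+ cells only.

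By genotype, the fit called 0 genes of any of these 5 lists. Without adjustment the same fit passed 7 of 24 kinases and adaptors, 3 of 8 receptors, 1 of 6 ligands, 4 of 11 other inhibitors and 2 of 17 target genes, beside 17.8% of all genes. In dKO CD43- cells Traf2 was 2.01-fold higher and Traf5 2.07-fold lower, and Ripk1, a kinase of the TNF receptor complex, was at 0.68 and Irak1 at -0.56. Nfkbid was lower in dKO, as was Nfkbiz: its differences were -0.46 (bead SE 0.067) in CD43+ and -0.85 (bead SE 0.049) in CD43- cells, with an adjusted p of 0.217. Zc3h12a (-0.45 and -0.89) and Nfkbib, which encodes IkB-beta (-0.45 and -0.60), were lower in both fractions, and Commd1 was at -0.19 and 0.41. Tnfrsf13b, which encodes the BAFF and APRIL receptor TACI, was at -0.87 and -1.13, Cd27 at 0.76 and 0.91, and Gadd45b, a stress-response target, at -0.74 and -1.19.

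**Figure D4:**
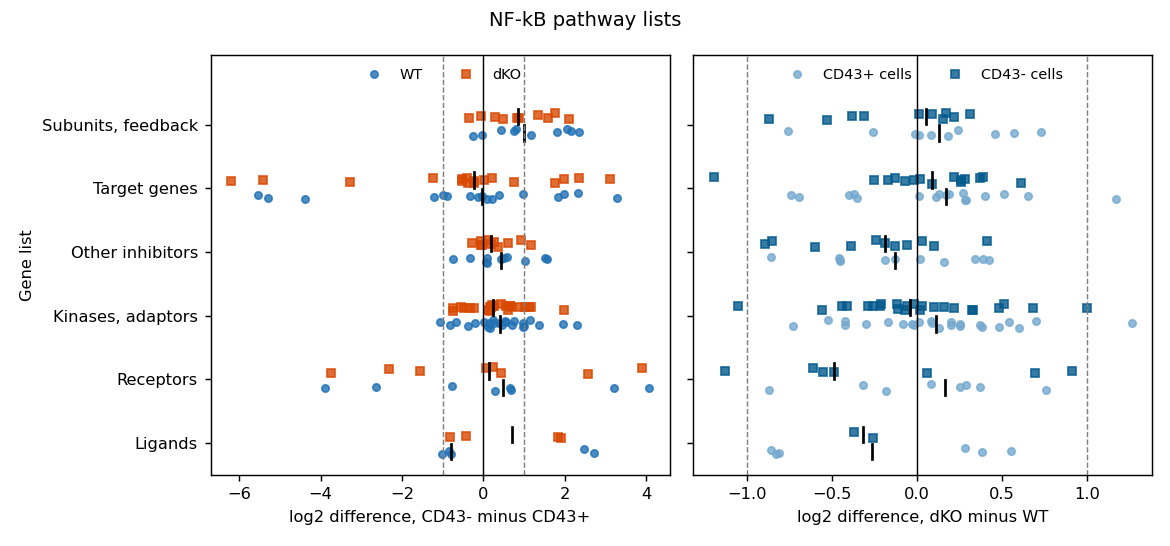
Differences of single genes (points) in 5 pathway lists and in the 10 subunit and feedback genes, CD43- minus CD43+ on the left and dKO minus WT on the right (log2); black marks are medians and dashed lines 2-fold, and the x axes differ in range. Genes detected on 1 array of a pair are drawn at their measured value, not at their bound. Target genes spread from -6.19 to 3.28 between the fractions, whereas genotype differences stayed between -1.19 and 1.26, the highest being Traf2 in CD43+ cells, for which the bound is 0.97.

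The genes whose 4 normalized values ran most like those of a member were found by the root mean square difference of the centred log2 values, over 6636 genes detected on all arrays and for the 7 members whose values spanned at least 2-fold. The closest were Eps8 and Ralgps2 for Nfkb2 (0.0829 and 0.0943), Rgs2 and Tirap for Relb (0.0579 and 0.0638), Ttpal and Asf1a for Rel (0.0308 and 0.0349) and Dusp10 and Myo1c for Nfkbia (0.0316 and 0.0573). For Tnfaip3 they were Eloa and Trappc2 (0.0142 and 0.0256), and for Nfkbiz Tmed1 and Trim3 (0.0242 and 0.0386). Bcl3 had the least close neighbours, Ercc2 and Rag1 (0.107 and 0.132). With 4 values a gene and this many candidates, close neighbours are found for most patterns, and the likeness is a description only.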

How the data were processed

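The authors deposited, per the file headers, a GenomeStudio 1.9.0 table with no normalization, holding for each probe a mean bead intensity on the linear scale, the SD over beads, the bead number and a detection score, a fraction from 0 to 1. The score rose with the signal, so 1 minus it was taken as the detection p, and a p under 0.01 as detected. The authors also deposited RMA values on a log2 scale (Arraystar, per the file headers), used as an alternative, and a linear ratio per gene, not used. The series matrix was identical to the RMA values for 18119 matched identifiers (column medians 3.77 to 3.79).

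The neqc function of limma 3.58.1 under R 4.3.3 corrected the background from the detection p, added an offset of 16 and quantile-normalized the signals, and each gene was read at its brightest probe. The offset shrinks differences of dim genes. The design text states no replicates, so single comparisons have no test and a threshold of 2-fold. The bead SE covers the chip measurement alone. Fold values of genes detected on 1 of 2 arrays are given as bounds, and medians, counts and the figure of lists use their measured values. Additive limma fits (lmFit, eBayes) covered 8962 genes detected on at least 1 array. Old symbols were updated from RefSeq for 2884 of 18138 identifiers. The normalization and the 2-fold reading at the brightest probe were tested on simulated data. The genes, lists and tests were chosen with earlier results of these data known. Named list genes were the 4 with the largest differences in a described comparison, and some of them are not reported here. Alternatives were an offset of 50, no background correction, 2 median scalings, RMA, the mean of probes, detection p under 0.05 and bounds.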

Additional observations from a re-analysis of the deposited data

Results flagged for a closer look

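Bcl3 was singled out because its genotype difference had opposite signs in the 2 fractions, each past 2 bead SE: 0.73 (dKO minus WT, log2) in CD43+ and -0.53 in CD43- cells. The signs were the same in the authors' RMA table (0.89 and -0.56) and without background correction (0.34 and -0.38), where the fractions differed by less than 2-fold. The difference between the fractions was not tested across animals, since each value comes from 1 pair of arrays.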

How the results depend on the processing

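No paired analysis was possible because each group has 1 array and the labels carry no replicate numbers; the additive fits use fraction or genotype as the block instead. The number of the 10 genes at least 2-fold higher in dKO CD43- than dKO CD43+ cells was 4, and 2 without background correction, where Rel was at 0.58 and Relb at 0.96; with an offset of 50 it was 3. In WT it was 5, and 4 with an offset of 50, without background correction and with median scaling. The genotype fit called 0 of the 10 genes, and 1 (Nfkbiz) with an offset of 50 and 1 without background correction; it called 2 of all genes, and 189 and 463 under these settings. The fraction fit called 6 of 10, and 4 to 8 under the alternatives (4 in the RMA table, 8 without background correction). No called value changed sign. Uncalled genotype differences of Rel, Relb, Nfkbia and Nfkbie changed sign under at least 1 setting. Median scaling over detected probes gave 89 genes at least 2-fold higher and 318 lower in dKO CD43+ cells, against 150 and 173. Without background correction 247 and 425 genes were past 2-fold between the WT fractions, against 670 and 954. Median scaling over all probes, added after seeing the data, moved the median of all genes by genotype to 0.318 in CD43+ and 0.248 in CD43- cells, against which Tnfaip3 was at 0.89 and 0.58. The causes were not tested. The dimmest CD43+ signals of the 10 genes were those of Rel (184 and 198), against lowest detected signals of 165 and 171 on these arrays.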
